A study of Sus scrofa with 6 samples.

Results

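The genes described here are the nuclear genes of respiratory complexes II to V, with transcript levels from RNA sequencing of the pig longissimus, the long muscle of the back. They were chosen by name: every record outside the mitochondrial chromosome whose symbol in the deposited table begins as a subunit of succinate dehydrogenase (SDHA to SDHD), a UQC gene of complex III, CYC1, CYCS, a numbered COX gene or an ATP5 gene. This gave 47 of 7661 records, with 43 different symbols: 4 of complex II, 6 of complex III, 1 of cytochrome c, 12 of complex IV, 16 of complex V, and 8 that match by name but encode assembly factors or proteins that are no subunit of a core complex. No record carried the symbol CYC1. The 2 groups of 3 libraries each were labelled high or low in intramuscular fat, the fat that lies within the muscle. The labels state no treatment, breed, sex, age or genotype, nor whether each library is a separate animal, so p-values measure only the spread between these libraries.

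The respiratory chain sits in the inner mitochondrial membrane. Complex II passes electrons from succinate to ubiquinone, complex III passes them from ubiquinol to cytochrome c, complex IV passes them from cytochrome c to oxygen, and complex V, the ATP synthase, uses the proton gradient that complexes III and IV help to build. Complexes III to V are assembled from subunits encoded in both genomes, whereas complex II is built from nuclear subunits alone, and oxidative muscle fibres hold more of all of them than glycolytic fibres do.

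Library totals lay between 25371989 and 34813172 reads, and each member had at least 214 reads in every library. Levels are read counts scaled to CPM, that is to library size, after TMM normalisation, and compare a gene between libraries only, since transcript lengths are not used here. Muscle fibre markers were plentiful, at 9.30% to 10.1% of each library for 7 records that include ACTA1, CKM and MYH7. Most fat cell and connective tissue marker records were higher in the high group. Of 8 adipocyte marker records 6 were higher, and 2 of these, PLIN1 and a record of THRSP, passed the test, where 0.144% of all records did. Those 2, CIDE-C and CIDEA lay below 10 CPM in every low library. The file lists only records above a CPM of 10 in 3 or more libraries. These records are thus listed only through their high libraries, and that filter fixed their direction. AQP7 (-0.66, all high libraries below all low ones) and CFD (-0.24) were lower. The 8 records had a median log2 fold change of 1.16 and summed to 206 to 359 CPM in high and 134 to 178 CPM in low libraries. All 15 fibroblast and matrix records were higher as well (median 0.82, summed 3875 to 5081 CPM against 1702 to 3420 CPM, 0 called). Higher estimates were also found for 3 of 4 endothelial, both macrophage, both satellite cell and 3 of 6 smooth muscle and pericyte records, and a lower one for the erythrocyte gene HBB (-0.22). Their part in the differences below was not tested, and in bulk tissue fewer cells of a type and less RNA per cell cannot be told apart.

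Nuclear genes of complexes II to V had slightly lower estimates in the high group almost throughout, and no single gene passed the test. Of the 47 records, 46 had a negative log2 fold change (high minus low), where 54.8% of all records did, and the 1 exception was ATP5S. Their median was -0.20, a level 12.7% lower, beside -0.04 for all 7661 records. All 39 core subunits were lower, with a median of -0.21 and a range of -0.52 to -0.04. Short genes in general lay lower in these data: of the 4489 other records within the members' range of genomic span, 67.4% were lower, with a median of -0.11. Among the 855 others up to the members' median span, 78.7% were lower, with a median of -0.19. The 24 members of that span had a median of -0.21. With the trend of each library on span removed, 42 of the 47 members were lower and their median was -0.10. In edgeR's quasi-likelihood test 0 of the 47 passed an adjusted p of 0.05, against 0.144% of all records in either direction and 0.0131% lower, and the smallest adjusted p was 0.134. At an unadjusted p under 0.05, 4 members were lower (COX8A, ATP5I, SDHB and COX4I1), a share close to the 8.3% of all records that were lower at that level. With 1 library left out, between 2 (without high library 2) and 7 (without low library 2) members had such a p. The standard errors of the members had a median of 0.16, and no 95% interval extended below -0.82. Limma-voom called 0 members as well, and DESeq2 called 1, COX8A, where it called 6.77% of all records in either direction and 1.84% as lower.

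**Figure D1:**
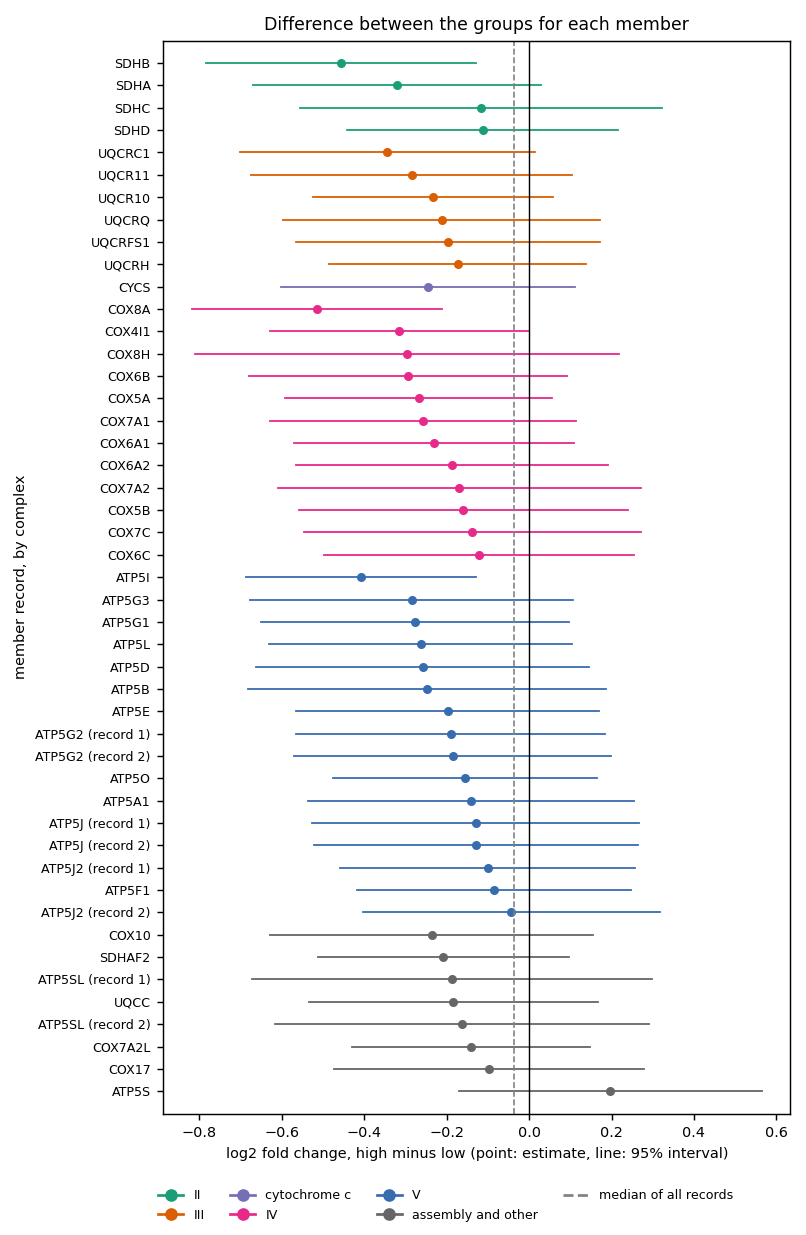
Log2 fold change (high minus low, horizontal axis) of the 47 member records with its 95% interval, by complex, with the median of all records as a dashed line. All points but that of ATP5S lie below 0, and the intervals of 4 members (SDHB, COX8A, COX4I1 and ATP5I) do not reach 0.

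The libraries of a group were not alike. High library 2 held the lowest level of all 6 libraries for 36 of the 47 records, and lay below all 3 low libraries for 41 of them, whereas high library 3 did so for 25 and high library 1 for 14. As shares these were 87.2%, 53.2% and 29.8% of the members, beside 31.1%, 29.8% and 28.1% of all records, so in high library 1 the members' share was near that of the table. Low libraries 3 and 1 held the highest level for 25 and 16 records. The median deviation of the members from the mean of the low group was -0.09, -0.39 and -0.19 in high libraries 1 to 3 and 0.03, -0.13 and 0.08 in low libraries 1 to 3, on the log2 scale. Low library 2 thus lay slightly below high library 1. Together the members took 0.751%, 0.646% and 0.715% of the reads of the high libraries and 0.875%, 0.798% and 0.808% of those of the low libraries. These are shares of the library totals, without TMM. After TMM the summed levels of the groups overlapped, with 7431 CPM in low library 2 and 7845 CPM in high library 1. The groups did not overlap, with high below low, for 10 of the 47 records, where 13.3% of all records had this pattern. High above low without overlap occurred for 0 members, where 13.5% of all records had it. With each library left out in turn, between 41 and 46 members stayed lower and the median lay between -0.27 (without high library 1 or low library 2) and -0.14 (without high library 2).

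**Figure D2:**
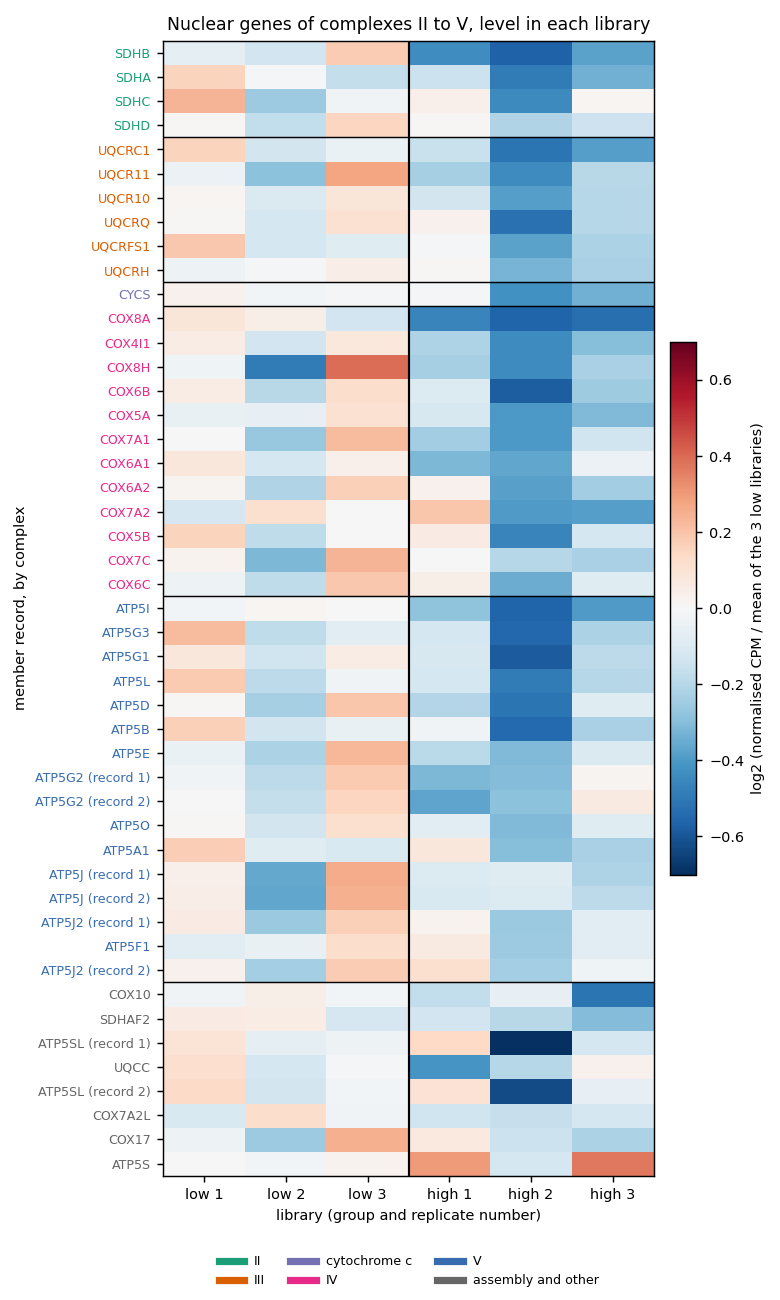
Level of each member in each library, as log2 of its normalised CPM over the mean of the 3 low libraries (blue lower, red higher), with members in rows by complex and libraries in columns. The column of high library 2 is the darkest blue (median -0.39), and high library 1 is the palest of the high libraries (median -0.09).

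Complex II is the smallest and the only enzyme shared with the citric acid cycle. SDHB, its iron-sulfur subunit (ENSSSCG00000020926, chromosome 6, 69990843 to 70021369 in the deposited coordinates, whose build is not given in the sources used here), was at 157, 144 and 164 CPM in high libraries 1 to 3 and at 204, 194 and 241 CPM in low libraries 1 to 3. All high libraries lay below all low libraries. The log2 fold change was -0.46 (SE 0.14, 95% interval -0.78 to -0.13, edgeR adjusted p = 0.176), a level 27.1% lower. SDHA, the flavoprotein that oxidises succinate, was at 169, 134 and 149 CPM against 209, 187 and 168 CPM, with high library 1 just above low library 3. Its log2 fold change was -0.32 (SE 0.15, edgeR adjusted p = 0.301). The membrane anchors SDHC and SDHD showed less. SDHC had 131, 93.7 and 129 CPM against 151, 107 and 126 CPM, and SDHD had 179, 153 and 160.1 CPM against 178, 157 and 197 CPM. Both overlapped widely between groups (-0.12, SE 0.19, and -0.11, SE 0.14), and their intervals reach from -0.56 to 0.32 and from -0.44 to 0.22. The interval of SDHB overlaps both, and a difference among the 4 subunits was not tested.

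Complex III passes electrons on to cytochrome c. UQCRC1, a core protein of the complex (ENSSSCG00000011356, chromosome 13, 34542911 to 34553133), was at 232, 181 and 198 CPM in the high and 288, 237 and 250.3 CPM in the low libraries, without overlap. Its log2 fold change was -0.34 (SE 0.15, edgeR adjusted p = 0.286). UQCR10, a small subunit, also had no overlap, at 73.3, 61.1 and 69.7 CPM against 80.8, 74.6 and 84.7 CPM (-0.23, SE 0.13, edgeR adjusted p = 0.348). UQCR11 stood at -0.28 (SE 0.17), with low library 3 at 89.9 CPM and the other 5 libraries between 54.8 and 72.3 CPM. UQCRQ, another small subunit, had -0.21 and UQCRH, the hinge protein, -0.17. The Rieske iron-sulfur protein UQCRFS1, which takes the electron from ubiquinol, had 289, 225 and 249.9 CPM against 332, 268 and 276 CPM (-0.20, SE 0.16). The median of the 6 records was -0.22. A record without a symbol in the deposited table, given as UQCRC2 in an Ensembl name table and thus no member, is the other core protein. It stood at -0.04 (SE 0.24) and ranged from 151 to 267 CPM over the high libraries and from 179 to 259 CPM over the low libraries.

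Cytochrome c itself (CYCS), the soluble carrier between complexes III and IV, separated high libraries 2 and 3 from the rest. It was at 340.2, 256 and 271 CPM in high libraries 1 to 3 and at 350.3, 338 and 339.9 CPM in low libraries 1 to 3, so high library 1 lay within the low range. The log2 fold change was -0.25 (SE 0.15, edgeR adjusted p = 0.412).

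Complex IV, cytochrome c oxidase, holds the member with the smallest p. COX8A, the widely expressed form of the small subunit 8 (ENSSSCG00000013046, chromosome 2, 7218448 to 7220218), was at 13.7, 12.8 and 13.1 CPM in high libraries and at 19.98, 19.3 and 17.1 CPM in low libraries. The 3 high values lay close together and below every low value. The log2 fold change was -0.52 (SE 0.13, 95% interval -0.82 to -0.21, edgeR adjusted p = 0.134), and it lay between -0.57 and -0.46 with each library left out. DESeq2 alone gave an adjusted p under 0.05 (0.0202), and over all alternatives its adjusted p lay between 0.0202 and 0.356. COX4I1, a regulatory subunit of the complex (chromosome 6, 3453458 to 3459813), was at 199, 169.7 and 188 CPM against 239, 210.2 and 243 CPM, again without overlap (-0.32, SE 0.13, edgeR adjusted p = 0.269). COX5A, at 234, 191 and 204 CPM against 244, 242 and 272 CPM, was the third without overlap (-0.27, SE 0.14, edgeR adjusted p = 0.337). COX5B, its partner around the core, overlapped, with 153, 107 and 135 CPM against 164, 130.2 and 147 CPM (-0.16, SE 0.17). Of the other small nuclear subunits, COX6B had -0.29, COX6C -0.12 and COX7C -0.14. The median of the 12 records was -0.24.

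Subunits 6A, 7A and 8 of complex IV have a form of heart and skeletal muscle and a form found in most tissues, and the c ring of complex V is encoded by more than 1 gene. The ratio of reads of such a pair within a library does not depend on how libraries are scaled. COX6A2, the muscle form, had between 5.50 and 8.05 times the reads of COX6A1 in the high and between 5.97 and 6.94 times in the low libraries. COX7A1, the muscle form, had 3.50 to 5.64 times the reads of COX7A2 in the high and 3.65 to 5.53 times in the low libraries. COX8H, listed by that name and taken here as the counterpart of COX8A, had 9.16 to 10.4 times its reads in the high and 5.83 to 12.1 times in the low libraries. These ratios compare reads and not levels, because transcript lengths enter them, but their change between libraries does not depend on length.

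No pair separated the groups. The log2 ratio of COX6A2 over COX6A1 was 2.70 ± 0.28 in high and 2.66 ± 0.12 in low libraries (SD, n = 3 per group), a difference of 0.05 (exact permutation test, two-sided p = 0.8). For COX7A1 over COX7A2 it was 2.18 ± 0.35 against 2.23 ± 0.32 (difference -0.05, exact permutation p = 0.8). COX8H over COX8A gave 3.29 ± 0.09 against 3.03 ± 0.53 (difference 0.26, exact permutation p = 0.5), the low libraries ranging from 2.54 to 3.60 around the high ones. That difference was 0.01 without low library 2 and 0.54 without low library 3. In complex V, ATP5G1 over ATP5G3 gave 0.15 ± 0.03 against 0.15 ± 0.14 (exact permutation p = 0.9). ATP5G2 over ATP5G3 gave 1.81 ± 0.28 against 1.71 ± 0.24 (exact permutation p = 0.5). For ATP5G2 the reads of both its records were added, and whether they share reads was not tested. All 5 adjusted exact p were 0.9; 3 against 3 libraries cannot give a p below 0.1.

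**Figure D3:**
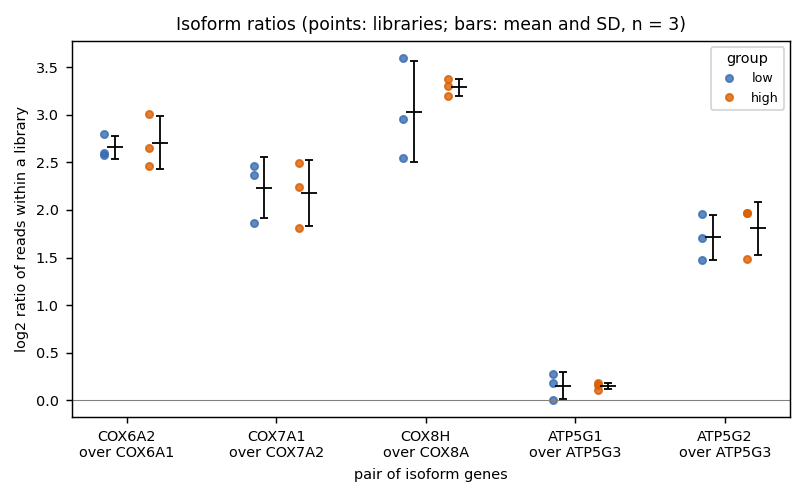
Log2 ratio of reads within each library (vertical axis) for 5 pairs of isoform genes, low and high libraries as points with the mean and SD (n = 3) as bars. The groups overlap in every pair; the low libraries spread most for COX8H over COX8A (SD 0.53).

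The genes of these pairs had estimates in the range of the other members. COX6A2 was at 138, 104 and 113 CPM in high and 137, 116 and 151 CPM in low libraries (-0.19, SE 0.16), and COX6A1 at 17.1, 16.5 and 20.6 CPM against 22.5, 19.5 and 21.7 CPM (-0.23, SE 0.15). COX7A1 had 102, 91.8 and 110.3 CPM against 122, 101 and 141 CPM (-0.26, SE 0.16). COX7A2 was the 1 core subunit with its highest level in a high library, at 29.3, 19.5 and 19.6 CPM against 23.6, 27.6 and 25.6 CPM (-0.17, SE 0.19). COX8H went from 113 CPM in low library 2 to 208 CPM in low library 3, with 135, 117 and 136 CPM in the high libraries. Its log2 fold change of -0.30, with the largest standard error of the members (0.22), became -0.05 without low library 3.

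Complex V gave the smallest median of the core complexes in size, -0.19 over 16 records, 13 symbols among them. ATP5I, the small membrane subunit e that helps ATP synthase to form dimers (ENSSSCG00000023903, chromosome 8, 149901 to 151754), was at 63.2, 52.1 and 58.3 CPM in high and at 75.9, 77.5 and 77.0 CPM in low libraries. The low libraries lay close together and all above the high ones, and the log2 fold change was -0.41 (SE 0.12, 95% interval -0.69 to -0.13, edgeR adjusted p = 0.160). It was the 1 record of complex V without overlap. ATP5L, the subunit g that binds beside it, had -0.26 (SE 0.16).

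The catalytic head of the synthase showed smaller differences against its spread. ATP5B, the beta subunit where ATP is formed and the member with the most reads, had 1183, 825 and 1025 CPM in high and 1346, 1099 and 1157 CPM in low libraries (-0.25, SE 0.19, edgeR adjusted p = 0.491). ATP5A1, the alpha subunit, had 802, 617 and 649.9 CPM against 858, 716 and 707 CPM (-0.14, SE 0.17). In both, high library 1 was above the lowest low library. ATP5D and ATP5E, of the central stalk, had -0.26 and -0.20, and ATP5O and ATP5F1, of the side stalk, -0.15 and -0.08. The c ring genes ATP5G3 and ATP5G1 had -0.29 (SE 0.17) and -0.28 (SE 0.16), with high library 2 lowest in both, at 90.3 and 97.7 CPM.

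Some records of complex V share a symbol. The 2 records of ATP5G2 differed by 0.912% to 3.79% in reads and had -0.19 each, and whether reads are shared between them was not tested. The records of ATP5J differed by 6.47% to 9.41% (-0.13 each). Those of ATP5J2 differed by 27.5% to 33.2% (-0.10 and -0.04). With 1 record per symbol, 42 of 43 members were lower and the median was -0.21.

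The 8 records outside the core subunits had a median of -0.17. COX10, SDHAF2 and COX7A2L had no overlap between the groups. COX10 (-0.24, SE 0.17) takes part in making the haem of complex IV, and SDHAF2 (-0.21, SE 0.13) attaches the flavin to SDHA. COX7A2L (-0.14, SE 0.12) joins complexes III and IV into supercomplexes. COX10 was the member with the fewest reads, at 9.42, 10.2 and 7.46 CPM in high and 10.5, 11.0 and 10.5 CPM in low libraries. COX17, the copper chaperone of complex IV, and UQCC, an assembly factor of complex III, overlapped (-0.10 and -0.18). ATP5SL, on 2 records (-0.19 and -0.16), was lowest in high library 2 on both, at 23.5 and 30.3 CPM. ATP5S was the 1 higher member, at 26.8, 19.99 and 28.1 CPM against 21.7, 21.5 and 22.2 CPM (0.20, SE 0.16, edgeR adjusted p = 0.516), with high library 2 below all low libraries as for most other members.

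The complexes had similar medians when all libraries were used and no trend on span was removed. Medians were -0.22 for complex II, -0.22 for complex III, -0.24 for complex IV and -0.19 for complex V, within 0.06 of each other with all 6 libraries. With 1 library left out, the gap between the largest and the smallest of these medians lay between 0.02 (without low library 2) and 0.14 (without low library 3, where complex II had -0.24 and complex V -0.10). The gap was 0.17 with all 6 libraries and each library's trend on span removed (complex II -0.23, complex V -0.06). With that trend kept, complex III had -0.14 without high library 2, and complex IV had -0.16 without low library 3. Each complex was lowest in high library 2, by -0.46, -0.40, -0.39 and -0.30 for complexes II to V relative to the low mean, and each was below the low mean in all high libraries. High library 1 lay between -0.10 and -0.06. The nuclear subunits of complex I, the entry point for electrons from NADH, had the same order: -0.10, -0.35 and -0.22 in high libraries 1 to 3. Of 36 complex I records, 33 were lower, with a median of -0.22 and 0 past the threshold (edgeR). At an unadjusted edgeR p under 0.05, 8 were lower, where 8.3% of all records were. Without high library 2 the median was -0.13 and 2 records had an unadjusted p under 0.05, and 3 did without low library 1. NDUFV3 (-0.62, SE 0.14, edgeR adjusted p = 0.114), NDUFS7 (-0.58, SE 0.17) and NDUFA13 (-0.38, SE 0.13) had the smallest p. No test set one complex against another.

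**Figure D4:**
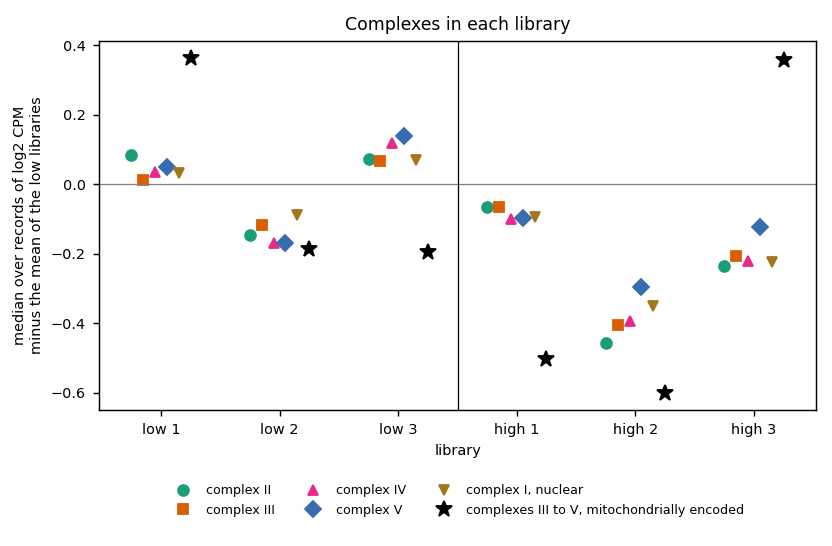
Median over the records of a complex of log2 CPM minus the mean of the low libraries (vertical axis), in each library. The nuclear complexes move together and are lowest in high library 2 (-0.46 to -0.30), whereas the mitochondrially encoded subunits (stars) are highest in low library 1 and high library 3 (0.36 in both).

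The mitochondrially encoded partners followed another order of libraries. The 6 records of cytochrome b, COX1 to COX3 and the ATP synthase subunits 6 and 8 (named MT-CYB, MT-CO1 to MT-CO3, MT-ATP6 and MT-ATP8) all had lower estimates in the high group (median -0.20). Their levels, however, stood at -0.50, -0.60 and 0.36 in high libraries 1 to 3 and at 0.36, -0.19 and -0.19 in low libraries 1 to 3. Low library 1 and high library 3 were high in these transcripts, and the same was not seen in the nuclear subunits of the same complexes. MT-CO2, MT-CO1 and MT-CYB had the smallest p (-0.34, SE 0.32; -0.18, SE 0.23; -0.29, SE 0.42), the smallest edgeR adjusted p being 0.580. High library 2 was the lowest for all 6, as for most nuclear members. Without low library 1 the median of the 6 became 0.01. Together they took 4.76% to 8.69% of the reads of a library.

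Further genes of the pathway gave 0 calls in edgeR. The 6 subunits and associated proteins of complexes IV and V that carry other names were all lower (median -0.26, 0 at an unadjusted p under 0.05). Their median was -0.14 without low library 3 and -0.16 without high library 2. Among them NDUFA4, now counted to complex IV, had -0.27 (SE 0.17), C14ORF2, a small subunit of ATP synthase, -0.25 (SE 0.14) and HIGD2A, a factor of complex IV assembly, -0.30 (SE 0.15). ATPIF1, the inhibitor of ATP synthase, had -0.47 (SE 0.26), with 187 CPM in low library 3 and 80.3 to 106 CPM in the other 5 libraries, and -0.11 without low library 3. Of the 21 assembly and maturation factor records, 7 of them members, 17 were lower (median -0.14). At an unadjusted edgeR p under 0.05, 2 were lower, where 8.3% of all records were. The median was -0.09 without low library 1 or high library 2, and in 3 of the 6 omissions 0 records had such a p. HCCS, which attaches haem to cytochrome c, had 30.7, 24.9 and 22.2 CPM against 36.7, 39.6 and 31.7 CPM without overlap (-0.47, SE 0.16, edgeR adjusted p = 0.197). FOXRED1, a factor of complex I that the list also holds, had -0.55 (SE 0.22). The ATPIF1 record above is counted in this list as well. The record named SCO1 was higher without overlap (0.36, SE 0.21), where 13.5% of all records had this pattern. It stood at 6343 to 11972 CPM, where LRPPRC, another of these factors, had 115 to 133 CPM. The SCO1 record lies on chromosome 12 between those of the fast fibre genes MYH1 and MYH4. Whether its reads come from SCO1 was not tested.

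Regulators of respiratory chain genes went both ways, 7 of 14 records each (median -0.05). At an unadjusted edgeR p under 0.05, 1 was lower and 2 were higher, where 8.3% and 10.2% of all records were. ESRRA, the oestrogen-related receptor that drives many respiratory genes, was at 114, 85.5 and 94.4 CPM in high and 153, 147 and 152 CPM in low libraries. All high libraries were below all low ones, and high library 2 was the lowest, as for most members (-0.62, SE 0.14, edgeR adjusted p = 0.116). Of all records 13.3% had high below low without overlap, and a link of ESRRA to the members was not tested. MEF2C, a muscle transcription factor, was on the other side, at 192, 195 and 187 CPM against 98.5, 78.4 and 112 CPM (0.99, SE 0.16, edgeR adjusted p = 0.0747). PPARA, a receptor for fatty acids, had 0.80 (SE 0.34, edgeR adjusted p = 0.266), and the coactivator PGC-1alpha, listed as PPARGC1, had 0.02 (SE 0.47), ranging from 53.1 to 186 CPM within the high group and from -0.52 to 0.40 with 1 library left out. Neither TFAM nor NRF1 was matched to a record.

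Slow fibres are rich in mitochondria, so fibre type genes are set beside the members. Of 9 slow fibre records 8 were lower, with a median of -0.31 and 0 called (edgeR, 0 at an unadjusted p under 0.05). CSRP3 (-0.85, SE 0.39), TNNT1 (-0.39, SE 0.27) and TNNC1 (-0.39, SE 0.32) had the smallest p. With 1 library left out the median lay between -0.52 (without low library 1) and -0.15 (without high library 1). By library their median deviation was -0.28, -0.40 and 0.06 in high and -0.71, 0.33 and 0.26 in low libraries. Low library 1 was thus the lowest in slow fibre genes, whereas the members' median there (0.03) was the second highest of the 6 libraries. Of 12 fast fibre records 9 were higher (median 0.10, 0 called in edgeR). At an unadjusted p under 0.05, 1 was higher, where 10.2% of all records were. ALDOA had 1.82 (SE 0.34, edgeR adjusted p = 0.0921), PVALB 1.22 (SE 0.72) and MYH4 0.22 (SE 0.19). The ALDOA record was only at 19.5, 34.9 and 52.2 CPM in high and 8.19, 11.1 and 11.0 CPM in low libraries. MYH4 had 12956 to 18593 CPM, and whether the ALDOA record holds the reads of the muscle aldolase was not tested. PVALB was at 73.1 CPM in high library 1 and at 10.04 to 14.6 CPM in the other 5 libraries, and without high library 1 its estimate was -0.32. Without low library 2 the median of the fast fibre records was -0.04. The part of fibre type in the members' differences was not tested.

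The members were short in genomic span on the whole, a property that the choice by name did not use. SDHC, SDHB and COX10 were longer than the median of all records. Their median span was 5.53 kb and their range 1.50 to 34.4 kb, beside a median of 21.7 kb for all records. Of other records from the shortest member up to the members' median span, 855 in all, 78.7% were lower (median -0.19), where all 24 members of that span were (median -0.21). Of the 3634 other records from there to the longest member, 64.8% were lower (median -0.09), where 22 of 23 members were (median -0.18). Of the 2791 longer records 31.5% were lower (median 0.14). After removal of each library's trend on span, the members' median of -0.10 stood beside -0.04 for all records. Medians were then -0.23 for complex II, whose genes are the longest (median 23.5 kb), -0.10 for complex III, -0.11 for complex IV and -0.06 for complex V. SDHB then had -0.51, COX8A -0.39, ATP5I -0.28 and COX4I1 -0.20. COX7C, 1 record of ATP5J and both records of ATP5J2 took values of 0.00 to 0.09. The members lie on 15 chromosomes, with 3 records on unplaced scaffolds.

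**Figure D5:**
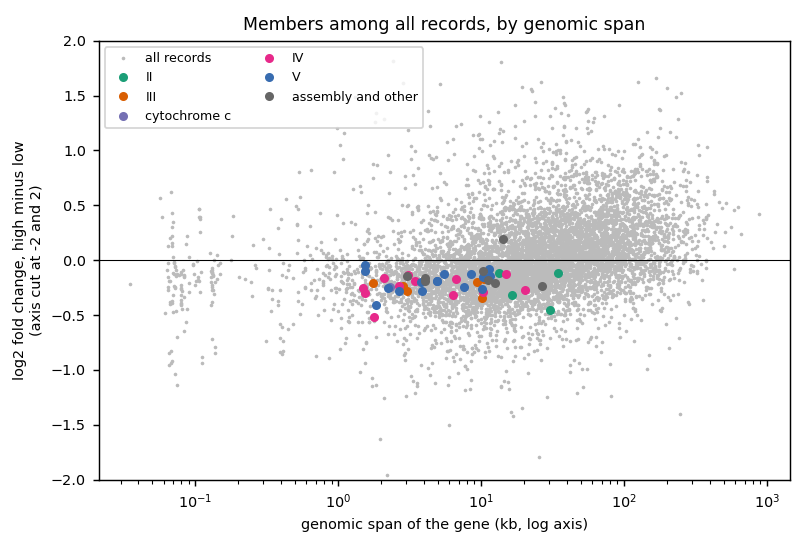
Log2 fold change (high minus low, vertical axis, cut at -2 and 2) against the genomic span of the gene (kb, log axis) for all records in grey and the members in colour by complex. The members lie between 1.50 and 34.4 kb, where 67.4% of the other records are below 0.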

How the data were processed

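RNA was sequenced from 6 longissimus samples, 3 per group. The submitters' processing notes name FastQC 0.10.1, Trimmomatic 0.22, TopHat2 2.0.4 and BWA 0.6.2. Sources used here do not give the read counter, strand setting, genome build or annotation release. The authors deposited raw read counts per Ensembl gene beside CPM, which is scaled to the library total and from which the totals were recovered. In the file every record exceeds a CPM of 10 in 3 or more libraries, and lower genes are not analysed here. The authors' log2 fold changes (low over high), p-values and false discovery rates, also deposited, were not used; the authors' deposited short list of 134 genes holds 0 members. Names came from the deposited table (6417 records) or an Ensembl name table (401).

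Counts of all 7661 records were fitted with edgeR 4.0.16 (R 4.3.3): TMM, filterByExpr, which kept all records and thus all 47 members, and the quasi-likelihood F-test of high against low without covariates. P-values were two-sided and adjusted over all records by Benjamini-Hochberg, with a threshold of 0.05. Intervals cover 95%. Standard errors come from the fold change and its F statistic. Alternatives used DESeq2 1.42.0, limma 3.58.1, other scalings and filters, the replicate number as a block, 1 library left out, or removal of a lowess trend on genomic span. Isoform ratios used 0.5 reads added to each count. Members and lists were chosen with earlier results of these data known. Any member could be named; in other lists, records past the threshold and the 3 of smallest p.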

Additional observations from a re-analysis of the deposited data

How the results depend on the processing

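The member count of 0 became 1 in DESeq2 (COX8A); it was 0 in every other alternative run, 1 record per symbol included, which was chosen after seeing the data. Calls over all records, 11, became 518 in DESeq2, 2 with a mean CPM of at least 50, 2 with the replicate block and 77 at an adjusted p under 0.1. Leaving out 1 library gave 1 (low library 2) to 30 (low library 1): 4 without high library 1 or 2, 5 without high library 3, 16 without low library 3. Deviations of same-numbered libraries correlated by 0.12, 0.03 and -0.08, and those of differently numbered ones by -0.19 to 0.14. With 3 libraries per group these values cannot show whether the numbers pair the libraries. Under the replicate block 0 members were called and the members' median was -0.20. DESeq2 called 1 complex I record, 2 regulators and 1 fast fibre record, and library totals alone 1 regulator. With a mean CPM of at least 50, 37 members were left, and the medians of assembly factors and regulators were -0.0559 and 0.0453.

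With 1 library left out, medians ran from -0.5736 (without high library 3) to 0.0137 (without low library 1) for mitochondrially encoded subunits, from -0.1749 to 0.0478 (without high library 3) for regulators and from -0.037 (without low library 2) to 0.2227 for fast fibre genes. Single members whose sign changed ran from -0.231 to 0.034 (SDHC), -0.2725 to 0.0024 (COX7C), -0.2801 to 0.0235 and -0.28 to 0.0206 (ATP5J), -0.1485 to 0.0586 (ATP5J2), -0.3713 to 0.0153 and -0.3048 to 0.0223 (ATP5SL) and -0.2094 to 0.0497 (COX17). Differences in log2 ratio ran from -0.1052 to 0.17 (COX6A2 over COX6A1), -0.2374 to 0.1328 (COX7A1 over COX7A2), -0.079 to 0.0593 (ATP5G1 over ATP5G3), -0.0237 to 0.2541 (ATP5G2 over ATP5G3) and 0.0124 to 0.5396 (COX8H over COX8A). Medians of complexes II to V ran from -0.2958 to -0.1539, -0.2933 to -0.1389, -0.3078 to -0.1593 and -0.2801 to -0.0958, that of complex I from -0.2862 to -0.1289, of assembly factors from -0.1782 to -0.0903, of subunits under other names from -0.2906 to -0.135 and of slow fibre genes from -0.523 to -0.148. Removal of the span trend gave 0.0028 (COX7C), 0.0026 (ATP5J), 0.0337 and 0.0912 (ATP5J2). The cause of these changes was not tested. Each member had at least 214 reads in every library, and 3 libraries per group limit the precision of each estimate.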
